A study of Mus musculus with 9 samples.

Results

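Transcripts of 10 genes that mark brain pericytes were followed in RNA from sorted brain endothelial cells: Vtn, Atp13a5, Rgs5, Abcc9, Kcnj8, Pdgfrb, Notch3, Cspg4, Higd1b and Anpep. They are 10 of the 23420 genes in the count matrix and were chosen by name with the values of APP/PS1 against WT already known. Their levels, p-values and calls in that comparison therefore describe the choice and are no test of it. All 10 were found in the matrix, and all 10 passed the filter on low counts that kept 13317 genes. Pericytes sit inside the basement membrane of capillaries and touch the endothelium directly. Endothelial cells recruit them by secreting PDGF-B, which binds the receptor encoded by Pdgfrb, and Notch ligands on the endothelium act on NOTCH3 in the pericyte. In the brain, pericytes cover capillaries densely and are known for their part in the blood-brain barrier and in the control of capillary blood flow.

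The 9 libraries came from 6-month-old C57BL/6 mice labelled male, with 3 libraries for each of 3 genotypes, APP/PS1xRIPK1KD, APP/PS1 and WT, and the labels name a single mouse per library. APP/PS1 mice carry transgenes for mutant amyloid precursor protein and presenilin 1 and deposit amyloid in the brain. APP/PS1xRIPK1KD mice carry the same transgenes and a change in Ripk1, whose kinase acts downstream of tumour necrosis factor receptors. The meaning of KD and the promoters of the transgenes are not given in the sources used here, and the WT mice are labelled with neither change. From each brain homogenate 20000 cells were sorted for endothelial CD31 and against CD45, which leukocytes carry, so no marker of mural cells (pericytes and smooth muscle cells of the vessel wall) was used in the gate. RNA was copied from its poly(A) tail by Smart-seq2 and amplified by PCR without molecular identifiers or strand information.

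Total expected counts ran between 16263792 (APP/PS1 replicate 1) and 52413200 (APP/PS1 replicate 3), with a median of 46603518. Levels below are CPM, read counts relative to the library total after scaling for library composition, and errors are SD over 3 libraries unless named otherwise. The endothelial sort was visible in every library: Pecam1, which encodes CD31, stood at 1190 to 1230 CPM in APP/PS1xRIPK1KD, 975 to 1230 in APP/PS1 and 1070 to 1230 in WT, while Ptprc, which encodes CD45, did not exceed 0.918 CPM. Ripk1 stood at 31.4, 44.9 and 35.5 CPM in APP/PS1xRIPK1KD, 75.3, 52.9 and 40.9 in APP/PS1 and 45, 48.1 and 34.9 in WT, and the genotypes overlapped. The ribosomal RNA precursor Rn45s took 20.2% to 26.4% of counts in APP/PS1xRIPK1KD, 15.8% to 28.6% in APP/PS1 and 29.6% to 33.8% in WT. All 9 mice were labelled male, but Xist, which female cells express, stood between 264 and 533 CPM in replicates 1 and 2 of every genotype, where the Y-linked transcripts summed to at most 0.433 CPM. In the replicate 3 libraries the Y-linked sum was 150 to 185 CPM and Xist at most 4.77 CPM. That split is balanced over the genotypes, and results are also given from replicates 1 and 2 alone.

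Pericyte transcripts were more abundant in the sorted cells of both amyloid genotypes than in those of WT mice. Summed over the 10 genes, they reached 60.3, 79.7 and 114 CPM in APP/PS1xRIPK1KD, 123, 146 and 116 CPM in APP/PS1 and 27.1, 11.1 and 24.7 CPM in WT. The sums of the 3 genotypes did not overlap, although the highest APP/PS1xRIPK1KD library, at 114 CPM, lay close to the lowest APP/PS1 library, at 116 CPM. Means were 84.6 ± 27.1 CPM in APP/PS1xRIPK1KD, 128 ± 15.6 in APP/PS1 and 21 ± 8.65 in WT (SD, n = 3 each). The APP/PS1 mean was 6.12 times the WT mean and the APP/PS1xRIPK1KD mean 4.03 times the WT mean. The APP/PS1xRIPK1KD mean was 0.659 times the APP/PS1 mean, a log2 ratio of -0.6 against a pooled SD between libraries of 0.5. In replicates 1 and 2 alone these log2 ratios were 2.82, 1.87 and -0.94, against 2.61, 2.01 and -0.6 in all libraries, and without Rn45s in the library sizes they were unchanged at 2.61, 2.01 and -0.6. Per 1000 CPM of Pecam1, the pericyte sum was 69.8 ± 21.4 in APP/PS1xRIPK1KD, 115 ± 17.6 in APP/PS1 and 17.7 ± 6.44 in WT. Much of the sum was Vtn and Rgs5, which together supplied 63.6% to 69.2% in APP/PS1xRIPK1KD, 62.9% to 68.2% in APP/PS1 and 43.7% to 59.1% in WT. In these bulk libraries, more pericytes or pericyte fragments among the sorted cells and more RNA of these genes per cell cannot be told apart.

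**Figure D1:**
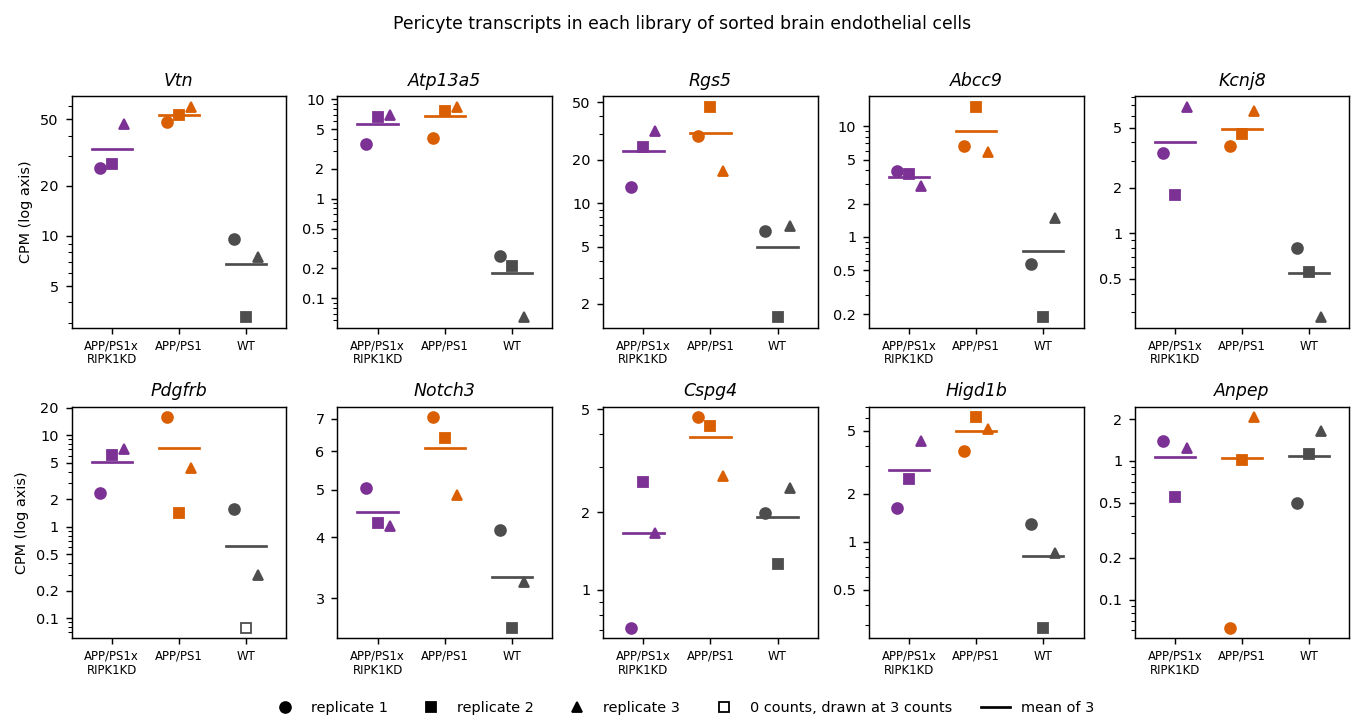
CPM (log axis) of each of the 10 pericyte transcripts in each library, by genotype. Symbols mark the replicate number, the short line is the mean of 3 libraries, and the open symbol is a library with 0 counts drawn at 3 counts. WT libraries lie below both other genotypes for Vtn, Atp13a5, Rgs5, Abcc9, Kcnj8, Higd1b and Notch3, while Anpep lies at about 1 CPM on average in every genotype.

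Fitted over all genes, 9 of the 10 had a log2 fold change above 0 in APP/PS1 against WT, where 50.2% of all genes did, with a median of 2.81 against 0.002 over all genes. For 8 of the 10 every APP/PS1 library lay above every WT library, as did 5.47% of all genes. At a false discovery rate (FDR, the p-value adjusted over all 13317 genes) under 0.05, edgeR called 2 of the 10, Vtn and Atp13a5, and 0.0225% of all genes in that direction, and 8 of the 10 had an unadjusted p under 0.05, as did 6.14% of all genes. Since this comparison chose the members, nothing is read from these counts.

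APP/PS1xRIPK1KD against WT shares the WT libraries with that comparison and so is no independent repeat of it. There, 8 of the 10 were above 0, where 50.6% of all genes were, and the median log2 fold change was 2.22 against 0.003 over all genes. In 8 of the 10 every APP/PS1xRIPK1KD library lay above every WT library, which held for 6.04% of all genes. Only Atp13a5 of the 10 passed the FDR threshold by edgeR, where 0.015% of all genes were called higher, and 7 of the 10 had an unadjusted p under 0.05, against 6.18% of all genes. DESeq2 called 4 of the 10 higher, namely Vtn, Atp13a5, Rgs5 and Kcnj8, and 0.219% of the 13251 genes it gave an adjusted p. Limma-voom called 0 of the 10 and 0% of all genes higher.

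APP/PS1xRIPK1KD against APP/PS1 shares the APP/PS1 libraries with the comparison that chose the members. All 10 values fitted by edgeR were below 0, where 49.4% of all genes were above 0, and their median was -0.45 against -0.003 over all genes. Anpep was at -0.01 ± 1.09 (SE). Pdgfrb, Anpep, Rgs5, Atp13a5 and Kcnj8 rose above 0 under another tool or setting or when a library was left out. Most members vary together, so they are not independent of each other. None of the 10 was called by edgeR, DESeq2 or limma-voom (FDR 1 for each by edgeR), where edgeR called 0.00751% of all genes. An unadjusted p under 0.05 was found for 1 of the 10, Abcc9, and for 4.78% of all genes. Every APP/PS1xRIPK1KD library lay below every APP/PS1 library for 3 of the 10, Vtn, Abcc9 and Cspg4, against 4.64% of all genes.

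**Figure D2:**
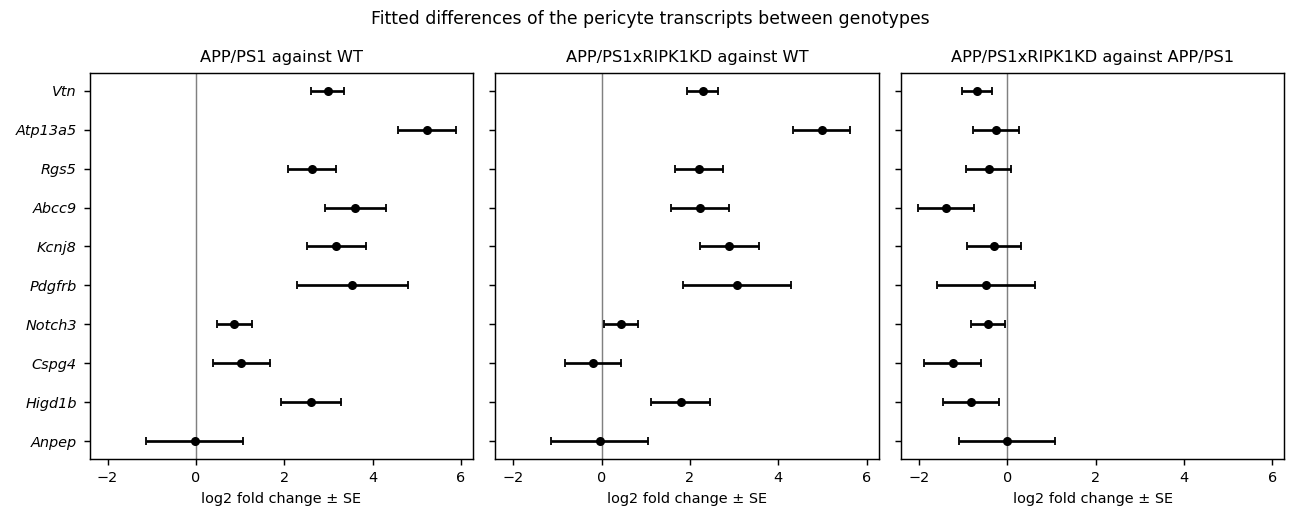
Fitted log2 fold change ± SE (edgeR, all 9 libraries) of the 10 pericyte transcripts in each comparison, with the first-named genotype over the second. The 7 transcripts from Vtn to Pdgfrb and Higd1b lie between 1.79 and 5.23 in both comparisons with WT, Notch3, Cspg4 and Anpep between -0.2 and 1.03, and all values lie at or below -0.01 in the comparison of the amyloid genotypes.

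The members lie on 8 chromosomes (GRCm38, GENCODE M21), and all are protein-coding. Kcnj8 (chr6:142564837-142571614) and Abcc9 (chr6:142587862-142702315) are neighbours on the minus strand, 16247 bases apart, and Vtn (chr11:78499091-78502324) and Higd1b (chr11:102835849-102838040) share chromosome 11. Promoter windows, the 250 bases before the RefSeq start of each gene (GRCm38.p6), were matched for 8 members, and Pdgfrb and Higd1b had none in that set. Vtn and Atp13a5 are the members called in APP/PS1 against WT, and Abcc9 and Kcnj8 are the neighbouring genes of a single channel. Anpep is the member that correlated least with the mean of the others, at -0.23, with Cspg4 next at 0.43. The windows of these 5 members, Cspg4 left out, are therefore shown. They lie at chr11:78498870-78499119 (plus strand), chr16:29378733-29378982 (minus), chr6:142702275-142702524 (minus), chr6:142571615-142571864 (minus) and chr7:79848211-79848460 (minus), and capitals mark matches to 6 motifs searched on both strands.
Vtn: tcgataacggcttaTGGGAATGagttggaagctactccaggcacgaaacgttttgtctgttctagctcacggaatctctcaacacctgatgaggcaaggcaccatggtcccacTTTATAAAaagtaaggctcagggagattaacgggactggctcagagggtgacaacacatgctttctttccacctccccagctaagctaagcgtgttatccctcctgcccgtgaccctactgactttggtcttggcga
Atp13a5: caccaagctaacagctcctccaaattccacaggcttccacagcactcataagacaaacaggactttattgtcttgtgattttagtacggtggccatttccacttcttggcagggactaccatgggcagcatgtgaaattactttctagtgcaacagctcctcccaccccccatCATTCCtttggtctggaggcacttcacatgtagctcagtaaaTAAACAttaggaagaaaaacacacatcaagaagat
Abcc9: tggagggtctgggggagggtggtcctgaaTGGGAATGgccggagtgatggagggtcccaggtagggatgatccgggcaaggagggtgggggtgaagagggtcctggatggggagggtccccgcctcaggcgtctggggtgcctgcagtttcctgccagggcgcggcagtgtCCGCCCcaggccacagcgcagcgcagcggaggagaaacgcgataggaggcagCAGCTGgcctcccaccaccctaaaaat
Kcnj8: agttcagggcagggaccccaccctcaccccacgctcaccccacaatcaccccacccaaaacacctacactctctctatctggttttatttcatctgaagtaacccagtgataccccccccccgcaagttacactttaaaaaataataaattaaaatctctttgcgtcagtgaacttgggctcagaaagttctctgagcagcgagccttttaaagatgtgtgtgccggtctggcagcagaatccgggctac
Anpep: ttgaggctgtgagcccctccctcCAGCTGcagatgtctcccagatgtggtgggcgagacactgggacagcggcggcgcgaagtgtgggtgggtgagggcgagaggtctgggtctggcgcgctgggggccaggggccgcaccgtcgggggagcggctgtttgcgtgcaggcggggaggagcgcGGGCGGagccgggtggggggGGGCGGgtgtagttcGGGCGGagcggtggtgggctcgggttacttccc
For RBPJ, the DNA-binding partner of Notch receptors, the letters searched were TGGGAA. For TEAD factors, which act in the Hippo pathway, they were GGAATG. For forkhead factors, the family of Foxf2, they were TAAACA. For SP1, a factor of GC-rich promoters, they were GGGCGG. For the TATA box they were TATAAA, and for the E-box of helix-loop-helix factors CAGCTG. Of 32851 promoter windows of the same length, 21.6% held the RBPJ letters, 12.6% the TEAD letters, 12.0% the forkhead letters, 32.7% the SP1 letters, 12.4% the TATA box and 13.0% the E-box. Among the 8 members' windows, matches were found in 2, 3, 2, 4, 1 and 2 in the same order. The RBPJ and TEAD letters overlapped as TGGGAATG in Vtn, starting at -236, and in Abcc9, starting at -221, counting the base before the start as -1. That overlap was picked after it was seen, and 1.27% of all windows held it. Kcnj8 held no match. GC content was 44.8% in Atp13a5, 49.2% in Kcnj8, 50.4% in Vtn, 66.8% in Abcc9 and 72.8% in Anpep, against a median of 52.4% over all windows. The Anpep window lies inside the gene as GENCODE M21 places it (chr7:79821803-79861059, minus strand), away from its outer start. The other windows shown adjoin or overlap the GENCODE M21 start of their gene.

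Vtn encodes vitronectin, an adhesive glycoprotein that brain pericytes secrete into the matrix around the vessel, and was the most abundant member in every genotype. It stood at 25.5, 26.9 and 47 CPM in APP/PS1xRIPK1KD, 48.1, 52.9 and 59.5 in APP/PS1 and 9.64, 3.24 and 7.47 in WT. The 3 genotypes did not overlap, with APP/PS1xRIPK1KD between the others. The log2 fold change was 2.98 ± 0.365 (SE) in APP/PS1 against WT. For APP/PS1xRIPK1KD against WT it was 2.29 ± 0.355, with an FDR of 0.0501 that lies just outside the threshold, and in APP/PS1xRIPK1KD against APP/PS1 it was -0.69 ± 0.337 (FDR 1). Among receptors and partners of vitronectin, the integrin subunits Itgb1, Itga5, Itgav and Itgb3 and the urokinase receptor Plaur all had FDR of at least 0.776 in every comparison, and 0 of the 6 tested genes of that list were called by edgeR, DESeq2 or limma-voom, with 1 of the 6 at an unadjusted p under 0.05 in each comparison of APP/PS1xRIPK1KD and 0 in APP/PS1 against WT. Itgb1, the most abundant of them, stood at 459 ± 59.6 CPM in APP/PS1xRIPK1KD, 503 ± 56.8 in APP/PS1 and 432 ± 43.7 in WT.

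Atp13a5, a P5-type transport ATPase whose expression in the brain is largely limited to pericytes, showed the largest fitted difference of the 10 in both comparisons with WT. Its levels were 3.51, 6.55 and 6.94 CPM in APP/PS1xRIPK1KD, 4.09, 7.66 and 8.36 in APP/PS1 and 0.265, 0.211 and 0.0642 in WT. The WT values rest on 9, 8 and 3 reads, with exact 95% Poisson intervals of 0.121 to 0.504, 0.091 to 0.415 and 0.0132 to 0.188 CPM, which cover counting error only. The amyloid genotypes overlapped each other, and both lay far above WT. The log2 fold change was 5.23 ± 0.651 in APP/PS1 against WT. In APP/PS1xRIPK1KD against WT Atp13a5 rose by 4.98 ± 0.645 (FDR 0.0122), and in APP/PS1xRIPK1KD against APP/PS1 it differed by -0.25 ± 0.524 (FDR 1). The call against WT was lost in replicates 1 and 2 alone (4.38, FDR 0.19), without WT replicate 1 (FDR 0.0553), WT replicate 2 (FDR 0.0545) or APP/PS1xRIPK1KD replicate 3 (FDR 0.0667), in a fit of only the libraries compared (FDR 0.0975), with the replicate number as a block (4.92, FDR 0.0707) and in limma-voom (FDR 0.508).

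Rgs5, which accelerates the shut-off of G protein signalling, is among the most used markers of brain pericytes. It stood at 12.9, 24.7 and 31.7 CPM in APP/PS1xRIPK1KD, 29.4, 46.6 and 16.6 in APP/PS1 and 6.4, 1.61 and 6.93 in WT. Both amyloid genotypes lay above WT and overlapped each other. The log2 fold change was 2.63 ± 0.548 in APP/PS1 against WT, 2.21 ± 0.54 in APP/PS1xRIPK1KD against WT (FDR 0.549 by edgeR and 0.00334 by DESeq2) and -0.42 ± 0.513 in APP/PS1xRIPK1KD against APP/PS1. Higd1b, a HIG1 domain gene expressed in pericytes, followed the same order at a lower level, with 1.63, 2.49 and 4.32 CPM in APP/PS1xRIPK1KD, 3.71, 6.07 and 5.1 in APP/PS1 and 1.3, 0.29 and 0.856 in WT. Its APP/PS1xRIPK1KD and APP/PS1 libraries overlapped, and both lay above WT. Its log2 fold changes were 2.61 ± 0.68 in APP/PS1 against WT, 1.79 ± 0.662 in APP/PS1xRIPK1KD against WT (FDR 0.705) and -0.82 ± 0.64 in APP/PS1xRIPK1KD against APP/PS1.

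Kcnj8 and Abcc9 encode the pore (Kir6.1) and the sulfonylurea receptor (SUR2) of the ATP-sensitive potassium channel of brain mural cells, which opens when cell energy is low. Kcnj8 stood at 3.39, 1.78 and 6.85 CPM in APP/PS1xRIPK1KD, 3.78, 4.53 and 6.46 in APP/PS1 and 0.796, 0.553 and 0.278 in WT. Abcc9 stood at 3.93, 3.72 and 2.87 CPM in APP/PS1xRIPK1KD, 6.67, 15 and 5.84 in APP/PS1 and 0.568, 0.187 and 1.47 in WT. WT was the lowest for both subunits, while the amyloid genotypes overlapped for Kcnj8 and were apart for Abcc9. In APP/PS1 against WT the log2 fold changes were 3.18 ± 0.674 for Kcnj8 and 3.61 ± 0.7 for Abcc9, which was 4.62 without WT replicate 3. The values of APP/PS1xRIPK1KD against WT were 2.89 ± 0.666 for Kcnj8 (FDR 0.381 by edgeR and 0.00531 by DESeq2) and 2.23 ± 0.665 for Abcc9 (FDR 0.596), and in APP/PS1xRIPK1KD against APP/PS1 -0.3 ± 0.612 for Kcnj8 and -1.38 ± 0.636 for Abcc9. The other pore and receptor genes of such channels, Kcnj11 and Abcc8, known from neurons and pancreatic beta cells, had 0 counts in every APP/PS1 and WT library and reached at most 0.108 CPM and 0.0612 CPM in single APP/PS1xRIPK1KD libraries. In single libraries a count of 0 allows up to 0.054 to 0.189 CPM, taking 3 counts as the limit.

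The 4 surface proteins in the group did not behave alike. Pdgfrb, the PDGF-B receptor that pericytes need to reach and stay on vessels, was the most variable, with 2.35, 6.16 and 6.99 CPM in APP/PS1xRIPK1KD, 15.8, 1.42 and 4.41 in APP/PS1 and 1.56, 0 and 0.3 in WT. APP/PS1xRIPK1KD lay above WT, whereas APP/PS1 replicate 2 lay below the highest WT library. In WT replicate 2 a count of 0 allows up to 0.0791 CPM. The log2 fold change in APP/PS1 against WT was 3.54 ± 1.25, and it moved to 2.24 without APP/PS1 replicate 1 and to 5.5 without WT replicate 1. Set against WT, APP/PS1xRIPK1KD differed by 3.07 ± 1.22 (FDR 0.756), and set against APP/PS1 by -0.47 ± 1.11. Pdgfb, the endothelial ligand of this receptor, stood at 178 ± 13.9 CPM in APP/PS1xRIPK1KD, 189 ± 26.4 in APP/PS1 and 172 ± 37.3 in WT, with FDR of at least 0.954 in every comparison.

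Notch3, the Notch receptor of mural cells that is mutated in the human small vessel disease CADASIL, stood at 5.04, 4.27 and 4.22 CPM in APP/PS1xRIPK1KD, 7.05, 6.39 and 4.87 in APP/PS1 and 4.13, 2.61 and 3.23 in WT. Its libraries did not overlap between WT and either amyloid genotype, but the differences were small, with log2 fold changes of 0.87 ± 0.39 in APP/PS1 against WT, 0.44 ± 0.388 in APP/PS1xRIPK1KD against WT (FDR 0.976) and -0.44 ± 0.387 in APP/PS1xRIPK1KD against APP/PS1. Of the endothelial Notch ligands, Jag1 stood at 165 ± 70.2 CPM in APP/PS1xRIPK1KD, 235 ± 6.94 in APP/PS1 and 155 ± 38 in WT, and Jag2 at 233 ± 25.1 CPM in APP/PS1xRIPK1KD, 236 ± 78.9 in APP/PS1 and 257 ± 58.2 in WT. The Notch target genes Hey1 and Hes1, which endothelial cells express too, had FDR of at least 0.889 in every comparison. Heyl, a Notch target of mural cells, stood at 2.32, 2.49 and 2.09 CPM in APP/PS1xRIPK1KD, 0.692, 3.74 and 0.834 in APP/PS1 and 0.796, 0.0264 and 0.107 in WT. Its APP/PS1xRIPK1KD libraries lay above every WT library and its APP/PS1 libraries overlapped WT, with log2 fold changes of 2.9 in APP/PS1xRIPK1KD against WT (edgeR FDR 0.756) and 2.52 in APP/PS1 against WT (FDR 0.811). Nrip2 averaged 1.71 ± 2.39 CPM in APP/PS1xRIPK1KD, 3.29 ± 0.63 in APP/PS1 and 0.848 ± 0.466 in WT, with FDR of at least 0.872 in every comparison. Heyl and Nrip2 are named with their values known. Hey2 of the same list had log2 fold changes of 0.39 in APP/PS1 against WT and 0.24 in APP/PS1xRIPK1KD against WT.

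Cspg4 encodes the NG2 proteoglycan of pericytes and of oligodendrocyte precursors. It stood at 0.714, 2.62 and 1.66 CPM in APP/PS1xRIPK1KD, 4.66, 4.32 and 2.76 in APP/PS1 and 1.98, 1.26 and 2.48 in WT. APP/PS1 was highest with no overlap, and the remaining genotypes overlapped. The log2 fold changes were 1.03 ± 0.641 in APP/PS1 against WT, -0.2 ± 0.636 in APP/PS1xRIPK1KD against WT (FDR 0.999) and -1.23 ± 0.644 in APP/PS1xRIPK1KD against APP/PS1. Anpep, which encodes aminopeptidase N (CD13), stood at 1.39, 0.548 and 1.24 CPM in APP/PS1xRIPK1KD, 0.0629, 1.02 and 2.07 in APP/PS1 and 0.501, 1.13 and 1.63 in WT, and all genotypes overlapped. The value in APP/PS1 replicate 1, the shallowest library, was 1 read, below the limit of 0.189 CPM that 0 counts would allow there. Its log2 fold changes were -0.03 ± 1.1 in APP/PS1 against WT, -0.04 ± 1.1 in APP/PS1xRIPK1KD against WT (FDR 1) and -0.01 ± 1.09 in APP/PS1xRIPK1KD against APP/PS1. These SE are larger than the fitted differences of Notch3 and Cspg4 between APP/PS1 and WT.

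The make-up of the pericyte signal was not the same in WT as in the amyloid genotypes. Notch3, Cspg4 and Anpep together supplied 6.25% to 11.8% of the members' counts in APP/PS1xRIPK1KD libraries, 8.04% to 9.54% in APP/PS1 libraries and 24.3% to 45.1% in WT libraries. Per 100 counts of Vtn, there were 8.97 to 19.8 counts of Notch3 in APP/PS1xRIPK1KD, 8.18 to 14.6 in APP/PS1 and 42.8 to 80.5 in WT. Atp13a5 had the opposite pattern, with 13.8 to 24.4 counts per 100 of Vtn in APP/PS1xRIPK1KD, 8.5 to 14.5 in APP/PS1 and 0.86 to 6.5 in WT. Rgs5 and Higd1b had ranges that overlapped between every pair of genotypes. Rgs5 had 50.6 to 91.7 counts per 100 of Vtn in APP/PS1xRIPK1KD, 28 to 88.1 in APP/PS1 and 49.6 to 92.8 in WT, and Higd1b had 6.4 to 9.25 in APP/PS1xRIPK1KD, 7.71 to 11.5 in APP/PS1 and 8.94 to 13.5 in WT. These ratios use the same counts that chose the members and are given with no test.

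**Figure D3:**
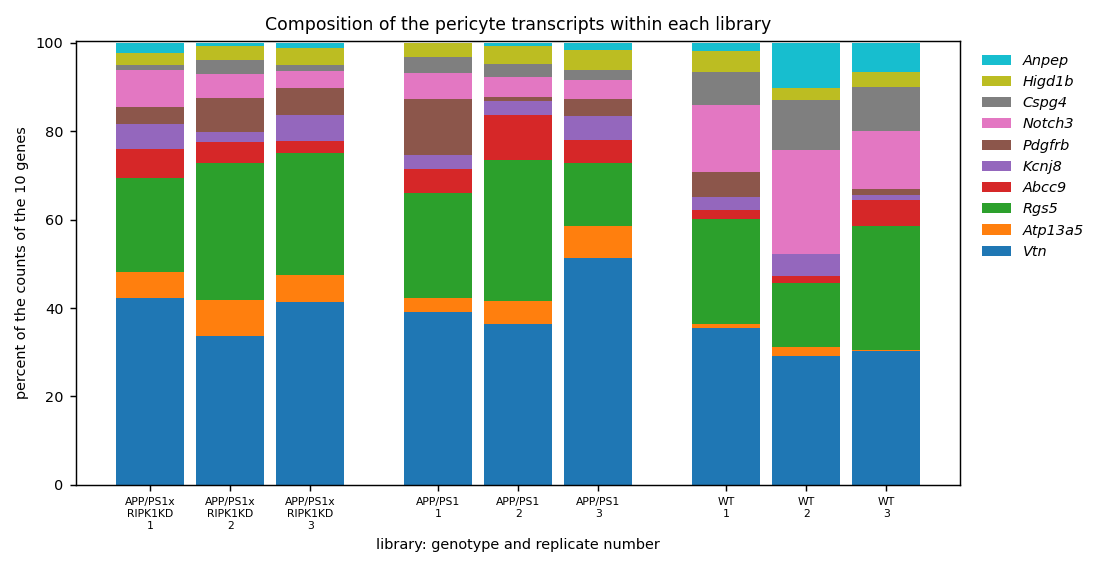
Share (percent) of each transcript in the summed counts of the 10 genes in each library, with genotype and replicate number along the axis. Notch3, Cspg4 and Anpep take 24.3% to 45.1% in WT libraries and at most 11.8% in the others, and Atp13a5 is barely visible in WT.

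Scaled by summed exon length, the order of the levels also differed. In every genotype Vtn was highest, at 16.3 ± 5.94 CPM per kilobase in APP/PS1xRIPK1KD, 26.4 ± 2.8 in APP/PS1 and 3.34 ± 1.6 in WT, followed by Rgs5 and Higd1b. Atp13a5 ranked 5 of 10 in APP/PS1xRIPK1KD (1.22 ± 0.403 CPM per kilobase) and in APP/PS1 (1.44 ± 0.491) and last in WT (0.0386 ± 0.0223). Notch3 ranked 7 in APP/PS1xRIPK1KD (0.557 ± 0.0569), 8 in APP/PS1 (0.754 ± 0.138) and 4 in WT (0.411 ± 0.0945). Neighbours in the order mostly did not differ beyond their spread: of 9 neighbouring pairs, the libraries overlapped in 6 in APP/PS1xRIPK1KD, 6 in APP/PS1 and 8 in WT. Vtn lay above the next gene without overlap in all 3 genotypes.

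Across the 9 libraries most members varied together. Over the 45 pairs of members, the Pearson correlation of log2(CPM + 0.5) had a median of 0.73 and ran between -0.49 and 0.97. With each genotype's mean removed the median was 0.29. The correlation with the mean of the other members was 0.99 for Vtn, 0.97 for Higd1b, 0.93 for Rgs5, 0.92 for Abcc9, 0.9 for Atp13a5, 0.87 for Kcnj8, 0.81 for Notch3, 0.71 for Pdgfrb, 0.43 for Cspg4 and -0.23 for Anpep. These points share library, depth and genotype and are a description. Among 11551 other genes averaging at least 1 CPM, those most like the mean profile of the members included Wtip (r = 0.968), Rgs4 (0.967), Jak1 (0.96), Golga5 (0.957), Trim68 (0.953), Vps35 (0.946), Zfand5 (0.943), Rasl12 (0.935) and Des (0.92). Rgs4, another regulator of G protein signalling found in pericytes, stood at 4.45, 6.16 and 25.3 CPM in APP/PS1xRIPK1KD, 10.9, 19.9 and 12.8 in APP/PS1 and 1.56, 0.0264 and 1.56 in WT. Rasl12 stood at 1.2, 2.49 and 2.74 CPM in APP/PS1xRIPK1KD, 2.45, 3.09 and 1.79 in APP/PS1 and 0, 0 and 0.0214 in WT. Vps35, a retromer subunit, was more abundant, at 133 ± 9.13 CPM in APP/PS1xRIPK1KD, 142 ± 11.3 in APP/PS1 and 100 ± 12.2 in WT.

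Other genes enriched in brain pericytes, a list of 22 that holds no member, lay mostly on the same side. This list and those below were chosen with earlier results of these data known, so they are no independent check of the members. In APP/PS1 against WT 21 of the 22 were above 0 (median log2 fold change 1.79), and in APP/PS1xRIPK1KD against WT 17 of the 22 with a median of 0.83, which became 0.4 with the 2 genes at 0 in every WT library set at their bound. In APP/PS1xRIPK1KD against APP/PS1 4 of the 22 were above 0, with a median of -0.38. The libraries did not overlap for 13 of the 22 in APP/PS1 against WT and for 6 in APP/PS1xRIPK1KD against WT, all higher than WT, and for 3, all lower, in APP/PS1xRIPK1KD against APP/PS1, where 5.47%, 6.04% and 4.64% of all genes did so in the same direction. None of the 22 was called by edgeR or limma-voom, where 7, 5 and 1 had an unadjusted p under 0.05 in that order of comparisons, and DESeq2 called 1, 1 and 0. The gene that DESeq2 called, Ndufa4l2, a mitochondrial protein gene named here after its values were seen, stood at 1.6 ± 0.994 CPM in APP/PS1xRIPK1KD, 2.39 ± 1.05 in APP/PS1 and 0.158 ± 0.0747 in WT. Summed, the 22 stood at 285 to 375 CPM in APP/PS1xRIPK1KD, 347 to 436 in APP/PS1 and 264 to 357 in WT, and all genotypes overlapped. The most abundant genes of the list were nearly level between genotypes: Foxf2, a forkhead factor also made by brain endothelium, stood at 128 ± 9.97 CPM in APP/PS1xRIPK1KD, 131 ± 0.424 in APP/PS1 and 121 ± 8.35 in WT, and Ecm2 stood at 63.3 ± 11.4 CPM in APP/PS1xRIPK1KD, 71.1 ± 3.96 in APP/PS1 and 64.7 ± 2.19 in WT.

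Markers of neighbouring vessel wall cells had fitted values mostly on the same side of 0. Of 13 tested smooth muscle genes, 11 were above 0 in each comparison with WT, with medians of 2.05 in APP/PS1 and 1.43 in APP/PS1xRIPK1KD, and 2 were above 0 in APP/PS1xRIPK1KD against APP/PS1, with a median of -0.34. Their summed level was 358 to 655 CPM in APP/PS1xRIPK1KD, 487 to 632 in APP/PS1 and 351 to 459 in WT, of which Smtn alone gave 235 ± 15.3 CPM in APP/PS1xRIPK1KD, 249 ± 45.3 in APP/PS1 and 252 ± 58.2 in WT. Acta2, smooth muscle actin, stood at 4.85, 21.5 and 96.6 CPM in APP/PS1xRIPK1KD, 39.4, 60.1 and 55.6 in APP/PS1 and 18.8, 1.13 and 11.7 in WT. APP/PS1 lay above WT without overlap, and APP/PS1xRIPK1KD spanned both. Of 8 tested genes of perivascular fibroblasts, 8 were above 0 in APP/PS1 against WT with a median of 2.44, 7 in APP/PS1xRIPK1KD against WT with a median of 1.26, and 1 in APP/PS1xRIPK1KD against APP/PS1 with a median of -1.16. Their sum was 17.2 to 54.2 CPM in APP/PS1xRIPK1KD, 33.9 to 107 in APP/PS1 and 11.7 to 35 in WT, Lum had 0 counts in every library and Col1a1 averaged at most 0.341 CPM in a genotype. Every APP/PS1 library lay above every WT library for 8 of the 13 smooth muscle and 3 of the 8 fibroblast genes, against 5.47% of all genes. In APP/PS1xRIPK1KD against WT this held for 1 of the 13 and 0 of the 8, against 6.04% of all genes. Neither list held a gene called by edgeR, DESeq2 or limma-voom, and unadjusted p under 0.05 were found for 4, 3 and 0 smooth muscle and for 4, 2 and 1 fibroblast genes in APP/PS1 against WT, APP/PS1xRIPK1KD against WT and APP/PS1xRIPK1KD against APP/PS1. The part of these cells in the pericyte result was not tested.

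**Figure D4:**
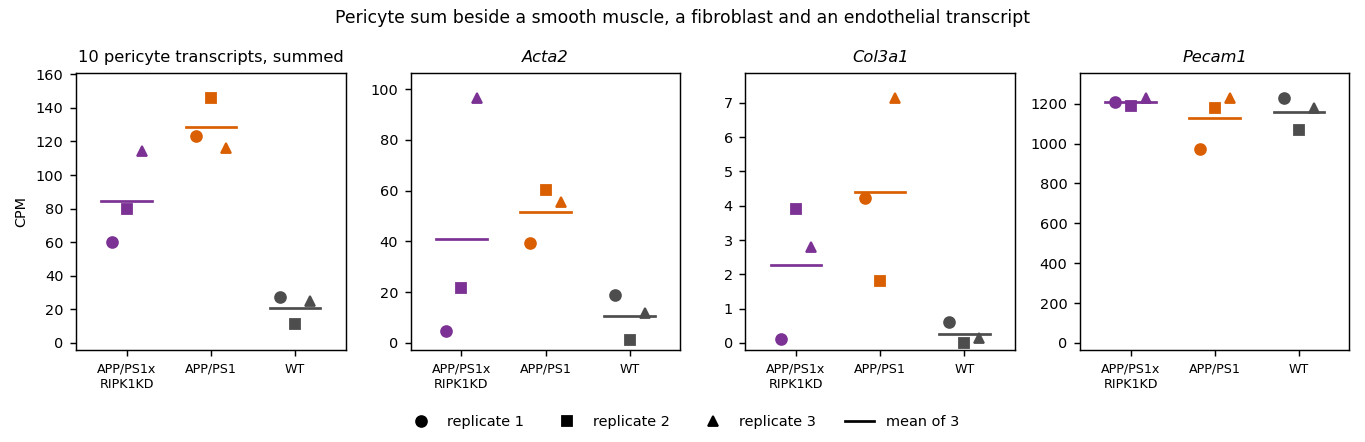
CPM by genotype of the 10 pericyte transcripts summed, and of Acta2 (smooth muscle), Col3a1 (fibroblast) and Pecam1 (endothelium), in each library, with means of 3. WT libraries are lowest for the pericyte sum, Acta2 ranges from 4.85 to 96.6 CPM within APP/PS1xRIPK1KD, and Pecam1 is level at 975 to 1230 CPM.

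The medians of endothelial lists, and of lists that endothelium shares with mural cells, lay near 0. Of 12 endothelial identity genes the medians were -0.08 in APP/PS1 against WT, 0.03 in APP/PS1xRIPK1KD against WT and 0.11 in APP/PS1xRIPK1KD against APP/PS1, with 0 called by edgeR, DESeq2 or limma-voom and 0, 1 and 2 at an unadjusted p under 0.05. Of 12 genes by which endothelium signals to mural cells, the medians were 0.18, 0.07 and -0.11 in that order, with 2, 2 and 1 at an unadjusted p under 0.05. EdgeR and limma-voom called 0 of them and DESeq2 called 1, Angpt2, in APP/PS1 against WT. Angpt2, angiopoietin 2, an endothelial signal that loosens pericyte contact, is named after its values were seen and stood at 19.7 ± 5.71 CPM in APP/PS1xRIPK1KD, 27.9 ± 3.82 in APP/PS1 and 13.3 ± 1.43 in WT (edgeR FDR 0.776 in APP/PS1xRIPK1KD against WT and 0.707 in APP/PS1 against WT). Of 13 basement membrane genes, which pericytes and endothelium share, the medians were -0.1, 0.07 and 0.2, with 4, 1 and 3 at an unadjusted p under 0.05 and 0 called by the same tools. Of 15 tested mural ligands, Notch targets and receptors of this exchange the medians were 0.15, 0.04 and -0.01, with 4, 1 and 0 at an unadjusted p under 0.05 and 0 called by the same tools. These 15 were not uniform. In APP/PS1 against WT 9 were above 0 and 6 below, between -0.59 for Efnb1 and 3.66 for Ednra (edgeR FDR 0.795 for both). Ednra averaged 1.12 ± 1.03 CPM in APP/PS1xRIPK1KD, 3.08 ± 0.833 in APP/PS1 and 0.235 ± 0.408 in WT. The most abundant of the 15, Eng, was at -0.08.

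Markers of other cells were present in every library. Oligodendrocyte lineage genes, which share Cspg4 expression in their precursors, summed to 32.1 to 34.7 CPM in APP/PS1xRIPK1KD, 31.4 to 85.6 in APP/PS1 and 27.3 to 40.4 in WT, and 7, 6 and 0 of 7 tested were above 0 in APP/PS1 against WT, APP/PS1xRIPK1KD against WT and APP/PS1xRIPK1KD against APP/PS1. Median log2 fold changes were 2.88, 0.6 and -1.83 in that order, where those of the members were 2.81, 2.22 and -0.45. Cnp gave most of the sum, with 26.1 ± 3.33 CPM in APP/PS1xRIPK1KD, 30.1 ± 5.81 in APP/PS1 and 28.5 ± 6.88 in WT. Every APP/PS1 library lay above every WT library for 2 of the 7, against 5.47% of all genes. Astrocyte genes summed to 77.9 to 95.2 CPM in APP/PS1xRIPK1KD, 75.4 to 81.3 in APP/PS1 and 40.6 to 114 in WT, with 7, 6 and 2 of 8 above 0. Their medians were 1.22, 0.98 and -0.52, and 4 of the 8 had every APP/PS1 library above every WT library. Gja1 gave most of their sum, with 73.9 ± 8.42 CPM in APP/PS1xRIPK1KD, 60.9 ± 2.3 in APP/PS1 and 71.2 ± 35.1 in WT. Microglia genes summed to 72.7 to 93.9 CPM in APP/PS1xRIPK1KD, 59.8 to 112 in APP/PS1 and 53.8 to 107 in WT, and neuron genes to 126 to 215 in APP/PS1xRIPK1KD, 162 to 254 in APP/PS1 and 111 to 242 in WT. Choroid plexus genes summed to 179 to 315 CPM in APP/PS1xRIPK1KD, 68.2 to 149 in APP/PS1 and 55.6 to 89.2 in WT, most of it Ttr, the transthyretin of the choroid plexus. Leukocyte genes summed to 3.45 to 9.88 CPM in APP/PS1xRIPK1KD, 4.32 to 17.5 in APP/PS1 and 7.8 to 358 in WT, where Cd74 alone gave 356 CPM in replicate 3. Erythroid and platelet genes, mostly haemoglobin transcripts, summed to 2350 to 4130 CPM in APP/PS1xRIPK1KD, 1960 to 9520 in APP/PS1 and 2120 to 2770 in WT. In the same order of comparisons, medians were 0.51, 0.35 and -0.12 for microglia genes and -0.28, -0.15 and 0.21 for neuron genes. Choroid plexus genes had medians of 0.94, 2.03 and 0.46, and the 3 tested leukocyte genes -1.28, 0.07 and 1.35. For erythroid and platelet genes they were 0.46, 0.33 and -0.49. EdgeR and limma-voom called 0 of the 45 tested genes of these 7 lists, of which 9, 7 and 5 had an unadjusted p under 0.05 in APP/PS1 against WT, APP/PS1xRIPK1KD against WT and APP/PS1xRIPK1KD against APP/PS1. DESeq2 called the astrocyte genes Gjb6 and Ntsr2 in APP/PS1 against WT, the astrocyte gene Sox9 in APP/PS1xRIPK1KD against APP/PS1 and Ttr in APP/PS1xRIPK1KD against WT; these genes are named after their values were seen. No gene of these 7 lists had 0 counts in all 9 libraries, but Olig1, Olig2, Slc17a7 and Cd3e each had counts in 1 library only. Their part in the pericyte result was not tested.

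The authors' deposited table of APP/PS1 against WT, which comes from the same 6 libraries, lists 12460 genes and 26 with an FDR under 0.05. In the authors' deposited table the log2 fold changes were 4.87 for Atp13a5, 3.7 for Abcc9, 3.22 for Pdgfrb, 3.18 for Kcnj8, 2.99 for Vtn, 2.69 for Rgs5 and 2.69 for Higd1b. In the authors' deposited table they were 1.04 for Cspg4, 0.7 for Notch3 and -0.17 for Anpep. The 6 members with an FDR under 0.05 in the authors' deposited table were Vtn, Atp13a5, Rgs5, Kcnj8, Abcc9 and Higd1b, the same 6 that DESeq2 called here, where it called 0.264% of all genes with an adjusted p higher. In that comparison edgeR called Vtn and Atp13a5 and limma-voom called Vtn alone (Atp13a5 FDR 0.803). With edgeR, 0 of the 10 were called in replicates 1 and 2 only (FDR 0.116 for Vtn and 0.146 for Atp13a5), without WT replicate 3 (0.061 for both) or without APP/PS1 replicate 3 (0.062 for both), and Vtn alone was called with the replicate block. All these calls come from the comparison that chose the members, so they describe the choice and are no test of the members.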

How the data were processed

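Poly(A)-primed RNA was sequenced from 9 samples of sorted brain endothelial cells, 3 per genotype. The authors deposited a matrix of RSEM expected counts per gene symbol, not normalized, of whose values 28.3% were not whole. Per the submitters' processing notes the tools were Bowtie 0.12.2, RSEM and edgeR 3.10.2 and the build mm10 (GRCm38), and no annotation is named there. The authors also deposited an edgeR table of APP/PS1 against WT with log2 fold changes and log2 abundances, a likelihood ratio score, a p-value and its FDR.

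These counts were rounded to integers, filtered by filterByExpr (minimum count 10, minimum total 15) and scaled by TMM. All 9 libraries entered an edgeR quasi-likelihood model with 1 coefficient for each genotype, and each contrast was tested 2-sided with Benjamini-Hochberg adjustment over 13317 genes at FDR 0.05. DESeq2, limma-voom, RLE scaling, library sizes without Rn45s, no filter, replicates 1 and 2 only, a replicate block, a term for Xist, only the libraries compared, and each library left out were alternatives. The fit was also run on simulated data with planted changes. These were planted only in genes above a minimum mean CPM, so the run does not cover the lowest members, and nothing is read from it. Same-numbered libraries of different genotypes deviated with correlations of -0.019 to 0.098, so replicate numbers were not taken as pairs. Promoters are RefSeq's and positions GENCODE M21's, matched by symbol.

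The members and lists were chosen with earlier results of these data known. Named were all members, up to 5 most abundant genes of each list, a fixed set and the 10 genes most like the members. An item these rules select is not reported here. Software was R 4.3.3, edgeR 4.0.16, limma 3.58.1, DESeq2 1.42.0, Python 3.11.15, pandas 2.3.3 and matplotlib 3.10.9.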

Additional observations from a re-analysis of the deposited data

How the results depend on the processing

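The log2 ratios of the summed pericyte transcripts kept their direction in every alternative run, between 2.31 and 2.84 in APP/PS1 against WT, 1.71 and 2.24 in APP/PS1xRIPK1KD against WT and -0.88 and -0.41 in APP/PS1xRIPK1KD against APP/PS1 when each library was left out, and 2.71, 2.09 and -0.62 relative to the endothelial list. Counts of genes called over the whole matrix were few and moved. In APP/PS1 against WT they were 3, against 45 with DESeq2, 7 with no filter on low counts, and 1 (without WT replicate 3) to 5 (without APP/PS1 replicate 2) when a library was left out. In APP/PS1xRIPK1KD against WT they were 5, against 62 with DESeq2, 2 with limma-voom, 14 with no filter, 8 in replicates 1 and 2 only, 3 with only the libraries compared, 3 without APP/PS1xRIPK1KD replicate 3, and 2 (without WT replicate 1, WT replicate 2 or APP/PS1xRIPK1KD replicate 1) to 9 (without APP/PS1xRIPK1KD replicate 2). In APP/PS1xRIPK1KD against APP/PS1 there was 1, against 19 with DESeq2, 0 with limma-voom or in replicates 1 and 2 only, and 0 (without APP/PS1 replicate 1 or 3 or APP/PS1xRIPK1KD replicate 1 or 3) to 4 (without APP/PS1 replicate 2 or APP/PS1xRIPK1KD replicate 2) when a library was left out. The replicate block gave 2, 0 and 0 calls in these comparisons. The numbers follow the Xist and Y-linked split, with replicates 1 and 2 on one side and replicate 3 on the other in every genotype, but the correlations did not pair the libraries, and not every library correlated best with its own number. Atp13a5 in APP/PS1xRIPK1KD against WT was called in 11 of 18 alternatives, with FDR from 4.24e-12 (DESeq2) to 0.508 (limma-voom), and Vtn by DESeq2 (5.46e-08) and with no filter (0.0314). The fold changes that changed sign lay between -0.47 and -0.01 in the fit described above, and the largest value after a change was 0.91. Against WT in APP/PS1xRIPK1KD, Cspg4 (-0.68 to 0.17 when a library was left out) became 0.04 in replicates 1 and 2 only, 0.04 without WT replicate 3 and 0.17 without APP/PS1xRIPK1KD replicate 1, and Anpep (-0.38 to 0.37) 0.24 in replicates 1 and 2 only, 0.27 with the replicate block, 0.07 with the Xist term, 0.37 without WT replicate 3 and 0.28 without APP/PS1xRIPK1KD replicate 2. Against APP/PS1 in APP/PS1xRIPK1KD, Pdgfrb (-0.95 to 0.83) became 0.55 with limma-voom, 0.7 with the replicate block and 0.83 without APP/PS1 replicate 1. There Anpep (-0.54 to 0.91) became 0.22 with limma-voom, 0.79 in replicates 1 and 2 only, 0.55 with the replicate block, 0.26 with the Xist term, 0.91 without APP/PS1 replicate 3 and 0.32 without APP/PS1xRIPK1KD replicate 2, and Rgs5 (-0.72 to 0.02) became 0.02 without APP/PS1 replicate 2, Atp13a5 (-0.5 to 0.01) 0.01 without APP/PS1xRIPK1KD replicate 1 and Kcnj8 (-0.92 to 0.06) 0.06 without APP/PS1xRIPK1KD replicate 2. The cause of these changes was not tested. Depth limits the lowest members, since WT libraries held 3 to 9 reads of Atp13a5 and 0 to 53 of Pdgfrb.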
